A study of Homo sapiens with 60 samples.

Results

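HepG2 cells are a human hepatocellular carcinoma line that keeps many functions of liver cells. They were exposed for 24 h to water extracts of herbal medicines, to wortmannin or to vehicle, and messenger RNA was sequenced. The comparison described here sets the 3 libraries of cells given Angelicae Gigantis Radix (the root of Angelica gigas, called angelica below) at 500 µg/mL against the 3 libraries of cells given Paeoniae Radix (peony root, called peony) at the same concentration. These 6 libraries were picked by their labels alone from 60 libraries in 20 groups of 3. Other groups were wortmannin (10 µM) and water extracts of Poria cocos, Atractylodis Rhizoma, licorice (Glycyrrhizae Radix) and Panax ginseng. Their libraries entered the fit but not the comparisons. Both extracts were also tested at 100 and 20 µg/mL in 3 libraries per dose, which are used below for comparison. Angelica and peony carry the same first number, 4, in the column labels of the deposited table. The 3 vehicle libraries (DMSO, given as 0.1% in the sample labels and as 2% in the series text) carry another one, so vehicle levels are printed beside the extracts with no test. Separate cultures behind the 3 libraries of each group are not stated in the labels. The p-values rest on the spread between libraries within groups, pooled over all 60 libraries in 20 groups, and this spread may be technical. It is therefore not the spread of the 6 compared libraries alone. Each extract is a whole water extract whose constituents the labels do not list, and HepG2 is a tumour line, not normal liver.

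Several pathways that liver cells use to sense chemicals and nutrients have well known target genes. The aryl hydrocarbon receptor (AHR) binds planar aromatic compounds, many of plant origin, and switches on CYP1A1, an oxidising enzyme of drug metabolism. The transcription factor ATF4 is made when amino acids run short or unfolded protein builds up, and it drives genes that import and synthesise amino acids, such as ASNS (asparagine synthetase) and SLC7A11 (the cystine transporter). Heat shock factors keep up the chaperones that fold proteins in the cytosol, and bone morphogenetic proteins signal through SMAD factors to the ID genes and to hepcidin, the hormone of iron balance.

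The 6 libraries held 24.206 to 33.354 M counts (M stands for 1000000 counts), with a median of 25.3 M, and the 60 libraries 20.853 to 33.354 M. A level is given as CPM, counts scaled to a library total of 1000000, and 3 counts correspond to 0.0899 to 0.1239 CPM in these 6 libraries. Transcripts of the mitochondrial genome took 9.53% ± 0.598 (SD, n = 3) of the counts with angelica and 9.99% ± 0.53 (SD, n = 3) with peony. All 10 hepatoma markers listed for HepG2, among them ALB (albumin) and AFP (alpha-fetoprotein), were above 1 CPM, and their summed level was 63300 to 63600 CPM with angelica and 61200 to 62600 CPM with peony. Of 10 blood cell markers, PTPRC, CD3E and HBB were at 0 in all 6 libraries, CD14, LYZ, CD68 and CD74 were at 1 CPM or more, and the sums were 1900 to 1940 CPM with angelica and 1950 to 2050 CPM with peony. Of 10 fibroblast markers, DCN and LUM were at 0, ACTA2 and RGS5 were at 1 CPM or more, and the sums were 67.5 to 70.5 CPM with angelica and 74.0 to 79.3 CPM with peony. Of 10 markers of lung and breast epithelial lines, 6 were at 0 and AGR2 alone reached 1 CPM, with sums of 16.3 to 17.8 CPM with angelica and 14.7 to 16.9 CPM with peony. The blood and fibroblast sums were thus higher with peony in every library, and their part in the results below was not tested.

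At 500 µg/mL the 2 extracts left HepG2 cells with many small differences and a few large ones. Cells given peony held more RNA of the ATF4 targets SLC7A11, ASNS and NUPR1, each more than 2-fold, while cells given angelica held more of CYP1A1 and of ID3, a SMAD target, also more than 2-fold. Of 16093 genes tested, 993 (6.17%) passed an adjusted p of 0.05 in edgeR's quasi-likelihood test with Benjamini-Hochberg adjustment. Of these, 578 (3.59% of the genes tested) were higher with angelica and 415 (2.58%) higher with peony. In bulk samples such as these, fewer cells of a type and less RNA per cell cannot be told apart. The median size of the difference among the 993 was 0.216 on the log2 scale. Only 207 differed by 1.25-fold or more, 59 by 1.5-fold or more and 18 by 2-fold or more, and 13 of those 18 lay below 5 CPM in both groups and are not described further. The libraries of the groups did not overlap for 553 of the 578 and 412 of the 415. Over all genes tested, all 3 angelica libraries lay above all 3 peony libraries in 1617 genes, and below them in 2809. Overlap was judged in CPM of the library total, without the scaling factors used in the test (0.991 to 1.02 in these 6 libraries). The 1617 and 2809 are therefore not on the scale of the calls. The count of 993 dropped by more than 1.5 times when 1 of 4 libraries was left out: it was 548 without peony 500 replicate 3, 576 without angelica 500 replicate 1, 598 without angelica 500 replicate 3 and 649 without peony 500 replicate 1.

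**Figure D1:**
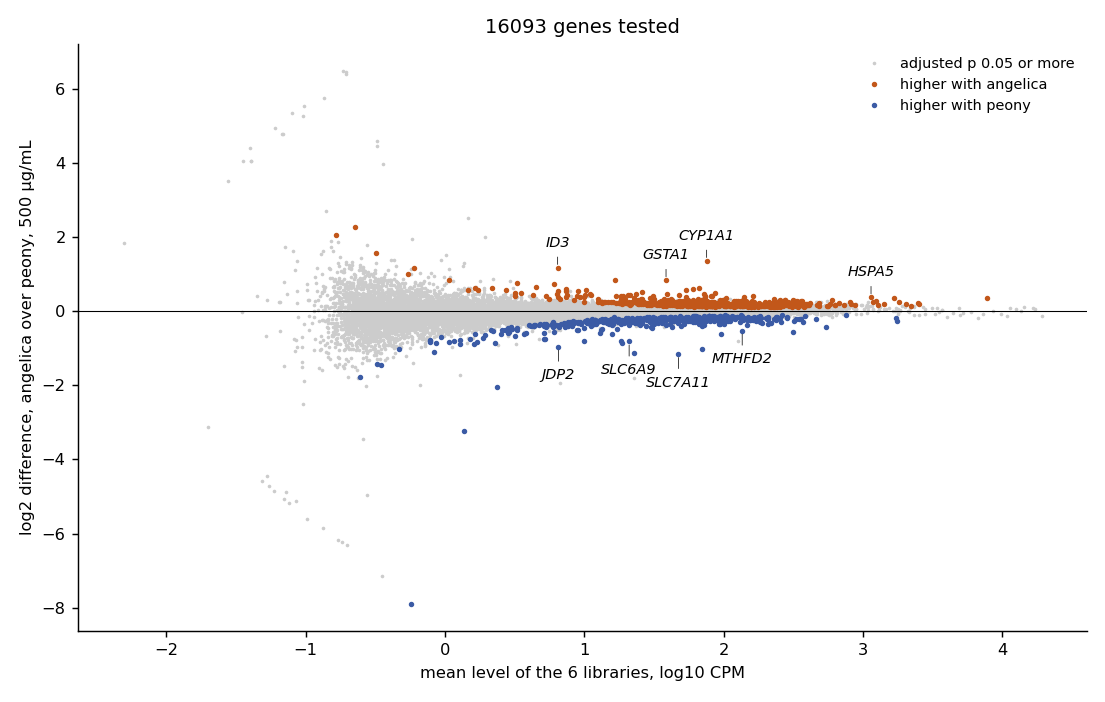
Log2 difference between angelica and peony at 500 µg/mL (positive: higher with angelica) against the mean level of the 6 libraries on a log10 CPM axis, 1 point per gene for 16093 genes tested. Orange points are the 578 genes higher with angelica and blue points the 415 higher with peony at an adjusted p under 0.05; all but 18 of the coloured points lie within 1 log2 unit of the zero line, and CYP1A1 and SLC7A11 stand out on either side.

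ATF4 targets and genes of amino acid supply were higher with peony. Of 21 measured genes on the ATF4 and amino acid stress list, 17 were higher with peony, none was higher with angelica, and all 21 log2 differences were negative. Their median was -0.366 against -0.005 over all genes tested, of which 2.58% were higher with peony. The count stayed between 14 and 16 when any 1 of the 6 libraries was left out. ASNS (ENSG00000070669, chr7:97852118-97872542, GRCh38), which makes asparagine from aspartate, stood at 93.7, 96.4 and 91.7 CPM in the 3 peony libraries and at 46.1, 44.5 and 45.1 CPM in the 3 angelica libraries. The spread within either group was small beside the gap. The difference was 2.04-fold (log2 -1.03 ± 0.045 SE, adjusted p = 3.93e-23, n = 3 per group). SLC7A11 (ENSG00000151012, chr4:138164097-138242349), the cystine importer that feeds glutathione synthesis, was at 66.4, 65.7 and 65.2 CPM with peony and at 31.0, 25.5 and 30.3 CPM with angelica. The groups did not overlap, and the difference was 2.23-fold (log2 -1.16 ± 0.077 SE, adjusted p = 4.56e-16). NUPR1, a small nuclear stress protein, was at 31.7, 32.0 and 31.1 CPM with peony and at 14.6, 14.4 and 13.1 CPM with angelica, a 2.21-fold difference (log2 -1.14 ± 0.09 SE, adjusted p = 2.21e-13). In all 3 genes the highest angelica library lay far below the lowest peony library. JDP2, a repressor that pairs with Jun proteins, was at 8.88, 8.94 and 8.08 CPM with peony and 4.14, 4.67 and 4.37 CPM with angelica (log2 -0.96 ± 0.097 SE, adjusted p = 5.01e-10). MTHFD2, the mitochondrial folate enzyme, was at 161, 165 and 157 CPM with peony and at 110.1, 112 and 108 CPM with angelica (log2 -0.52 ± 0.043 SE, adjusted p = 4.83e-13). Both again showed no overlap between groups. ATF4 mRNA itself averaged 621 CPM with peony and 455 CPM with angelica (log2 -0.42 ± 0.043 SE, adjusted p = 4.98e-10). The 4 members that did not pass had log2 differences of -0.002 (DDIT3), -0.09 (SLC7A5), -0.11 (SLC3A2) and -0.35 (CEBPB). DDIT3 encodes CHOP, a factor of the unfolded protein response, SLC7A5 and SLC3A2 the chains of a transporter of large neutral amino acids, and CEBPB a liver transcription factor.

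**Figure D2:**
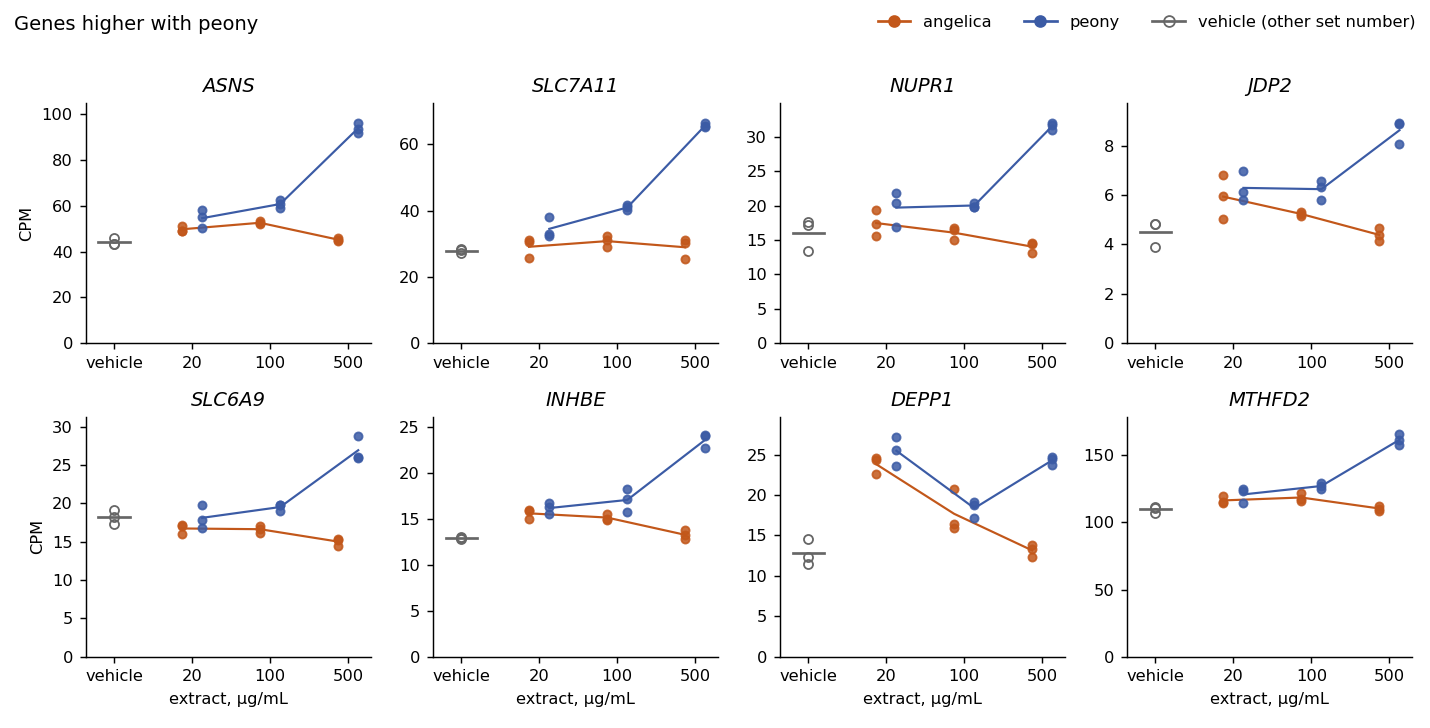
Level in CPM (linear axes from 0) of 8 genes higher with peony at 500 µg/mL, in every library of angelica (orange), peony (blue) and vehicle (grey open circles, another set number), by dose in µg/mL; lines join the means of 3 libraries. At 500 µg/mL the peony libraries of each gene lie above the angelica libraries, as for ASNS with means of 94.0 and 45.2 CPM.

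The levels at the other doses showed on which side the gap opened. ASNS averaged 54.6, 60.8 and 94.0 CPM at 20, 100 and 500 µg/mL peony, 49.7, 52.6 and 45.2 CPM at the same doses of angelica and 44.1 CPM in vehicle. From 20 to 500 µg/mL peony, 13 of the 21 list members rose and none fell, where 3.49% of all genes were called. From 20 to 500 µg/mL angelica none rose and 2 fell, where 1.22% were called. The difference of the dose changes itself, fitted as an interaction, passed the threshold for 13 of the 21 genes, all more strongly upward with peony, against 0.926% of all genes. These 3 comparisons share libraries with the one at 500 µg/mL. The libraries at 100 µg/mL are separate ones, and there SLC7A11 was already higher with peony (41.0 against 30.8 CPM, log2 -0.42, adjusted p = 0.0106), as was ASNS (60.8 against 52.6 CPM, log2 -0.22, adjusted p = 0.0471), the latter close to the threshold. In all 8 genes were called at that dose, and 2 to 5 with 1 of its libraries left out. At 20 µg/mL the log2 difference of SLC7A11 was -0.25 (adjusted p = 1) and the median of the list was -0.024.

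A short sequence element of ATF4 targets was looked for in the promoters. ATF4 and its C/EBP partners are known to bind the amino acid response element, whose core is written here as TGATGNAA and was searched on both strands in the 250 bases before the transcription start (RefSeq, GRCh38.p14). The element was found in 2.38% of 11114 tested genes with a promoter entry, in 5.88% of 323 genes higher with peony and in 0.637% of 471 genes higher with angelica. Of the 17 called genes of the ATF4 list, 13 had an entry and 3 held the element, namely ASNS, JDP2 and ATF3. ATF3, a stress-induced repressor named here because of its match, was at 6.08 CPM with peony and 4.64 CPM with angelica (adjusted p = 0.0487). A match describes the letters of this window and is no sign of binding. The stretches of ASNS and JDP2 up to the start site are shown because, of the 3, these genes differed more, 5′ to 3′ on the gene's strand with the element in capitals. In ASNS it begins 68 bases before the start site and in JDP2 16 bases before it.
ASNS, chr7:97872409-97872528, minus strand: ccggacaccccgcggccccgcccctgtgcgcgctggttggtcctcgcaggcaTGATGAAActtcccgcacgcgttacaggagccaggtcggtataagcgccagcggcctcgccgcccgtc
JDP2, chr14:75427922-75428021, plus strand: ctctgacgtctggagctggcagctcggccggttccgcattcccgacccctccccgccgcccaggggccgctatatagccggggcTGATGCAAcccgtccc

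Amino acid transport and the serine and folate pathway overlap with the ATF4 list and showed the same direction in most members that passed. Over all genes tested, 2.58% were higher with peony and 3.59% with angelica. Of 15 amino acid and osmolyte transporters, 7 were higher with peony and none with angelica (median log2 -0.197), and 1 of the 7, SLC7A11, is on the ATF4 list too. SLC6A9, the glycine transporter, was at 25.9, 26.1 and 28.8 CPM with peony against 14.5, 15.2 and 15.3 CPM with angelica, with no overlap (log2 -0.82 ± 0.065 SE, adjusted p = 2.5e-13). SLC1A5, which imports glutamine, averaged 243 CPM with peony and 192 CPM with angelica (log2 -0.31 ± 0.038 SE, adjusted p = 7.64e-08). Of 14 genes of serine synthesis and the folate cycle, 7 were higher with peony and 1 with angelica (median log2 -0.170), and 5 of the 7 are also on the ATF4 list. PHGDH, the first enzyme of serine synthesis, averaged 187 CPM with peony and 153 CPM with angelica (log2 -0.27 ± 0.043 SE, adjusted p = 2.73e-05). ALDH1L2, a mitochondrial folate enzyme, was at 6.54, 6.71 and 6.49 CPM with peony and 3.63, 4.34 and 3.56 CPM with angelica (log2 -0.76 ± 0.117 SE, adjusted p = 1.28e-05). The folate enzymes of the mitochondrion and the cytosol thus parted in the case of MTHFD2 and MTHFD1. MTHFD1, which acts in the cytosol, was higher with angelica, at 189, 190.0 and 189 CPM against 171, 169.8 and 163 CPM (log2 0.20 ± 0.03 SE, adjusted p = 9.65e-06). With any 1 library left out the transporter count stayed at 6 or 7, as did that of the serine and folate genes higher with peony.

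The cytosolic aminoacyl-tRNA synthetases, which load amino acids onto tRNA, split in both directions. Of 20, 6 were higher with peony, 4 with angelica and 10 did not pass, with a median log2 difference of -0.091. Over all genes tested, 2.58% were higher with peony and 3.59% with angelica. CARS1, GARS1 and MARS1, the enzymes for cysteine, glycine and methionine, were higher with peony by log2 differences of -0.38 ± 0.056, -0.29 ± 0.039 and -0.24 ± 0.038 SE, with adjusted p of 4.12e-06, 5.82e-07 and 2.24e-05. HARS1, the enzyme for histidine, was higher with angelica, at 82.6, 85.6 and 81.7 CPM against 76.2, 72.4 and 72.7 CPM (log2 0.20 ± 0.038 SE, adjusted p = 0.00044). The 6 higher with peony were 6 in number with any 1 library left out, and the 4 higher with angelica dropped to 2 without angelica 500 replicate 3 or without peony 500 replicate 1.

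Genes of the p53 and FOXO lists, both known for restraining growth under stress, were also higher with peony where they passed. Of 24 p53 targets, 8 were higher with peony and none with angelica (median log2 -0.135), where 2.58% of all genes were higher with peony. Of the 8, SESN2 and GDF15 stand on the ATF4 list as well. CDKN1A, which encodes the cell cycle inhibitor p21, was at 140.0, 149 and 145 CPM with peony and at 112, 122.8 and 109.8 CPM with angelica (log2 -0.31 ± 0.049 SE, adjusted p = 2.32e-05). DDB2, a DNA damage sensor, averaged 60.8 CPM with peony and 49.9 CPM with angelica (log2 -0.26 ± 0.044 SE, adjusted p = 5.94e-05). MDM2, the ligase that degrades p53, averaged 221 and 193 CPM (log2 -0.17, adjusted p = 0.131), and BAX, a cell death effector, 102 and 98.9 CPM (log2 -0.017, adjusted p = 0.929). Of 16 FOXO and gluconeogenesis genes, 6 were higher with peony and none with angelica (median log2 -0.199, beside the same 2.58% of all genes), but the count dropped to 3 without angelica 500 replicate 1 or without peony 500 replicate 2. DEPP1, a FOXO target, was at 24.4, 23.8 and 24.7 CPM with peony and 13.8, 13.3 and 12.4 CPM with angelica, with no overlap (log2 -0.86 ± 0.102 SE, adjusted p = 5.03e-08). Its means at 20, 100 and 500 µg/mL were 23.8, 17.7 and 13.2 CPM with angelica and 25.5, 18.4 and 24.3 CPM with peony, beside 12.8 CPM in vehicle. The dose changes differed (interaction log2 -0.76, adjusted p = 0.00158). PCK2, the mitochondrial enzyme that makes phosphoenolpyruvate, was 1.28-fold higher with peony (log2 -0.36 ± 0.045 SE, adjusted p = 1.03e-07), whereas its cytosolic counterpart PCK1 averaged 14.5 CPM with peony and 13.9 CPM with angelica (adjusted p = 0.917).

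Other genes higher with peony had varied roles, and VLDLR and DDIT4 among them are already counted in the ATF4 list above. INHBE, a hepatic activin subunit, was at 22.8, 24.0 and 24.1 CPM with peony and 13.2, 13.8 and 12.8 CPM with angelica (log2 -0.81 ± 0.072 SE, adjusted p = 1.16e-11). ADM2, a secreted peptide of the calcitonin family, averaged 12.8 CPM with peony and 7.15 CPM with angelica (log2 -0.81 ± 0.077 SE, adjusted p = 5.01e-11). VLDLR, a lipoprotein receptor, averaged 6.52 CPM with peony and 3.77 CPM with angelica (log2 -0.76 ± 0.102 SE, adjusted p = 6.8e-07). All 3 were higher in each peony library than in any angelica library. DDIT4, an inhibitor of the growth kinase mTORC1, was at 118, 117 and 114 CPM with peony and 79.6, 72.4 and 69.4 CPM with angelica (log2 -0.63 ± 0.136 SE, adjusted p = 0.00182). ADGRG1, an adhesion receptor, and CDC42BPG, a kinase, differed by log2 -0.62 ± 0.075 and -0.60 ± 0.111 SE, and FAXDC2 and ZFP69B by -0.58 ± 0.071 and -0.56 ± 0.098 SE, with adjusted p of 7.07e-08, 0.000217, 7.07e-08 and 0.000118. HMOX1, heme oxygenase, differed less, at 108, 108 and 108 CPM with peony against 89.9, 93.9 and 83.9 CPM with angelica (log2 -0.26 ± 0.052 SE, adjusted p = 0.000796).

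CYP1A1 (ENSG00000140465, chr15:74719542-74725610, GRCh38) was higher with angelica. It stood at 114, 108 and 101 CPM in the 3 angelica libraries and at 44.4, 44.7 and 40.3 CPM in the 3 peony libraries. No angelica library came near the peony range, and the difference was 2.54-fold (log2 1.35 ± 0.067 SE, adjusted p = 3.19e-21). The gap was present at every dose: the means were 25.4, 47.0 and 108 CPM at 20, 100 and 500 µg/mL angelica and 13.5, 18.6 and 43.1 CPM at the same doses of peony, beside 12.8 CPM in vehicle. In separate libraries the log2 difference was 1.33 at 100 µg/mL (adjusted p = 1.82e-18) and 0.91 at 20 µg/mL (adjusted p = 1.93e-10). The rise from 20 to 500 µg/mL passed the threshold with both extracts, with log2 changes of 2.10 for angelica (adjusted p = 1.66e-28) and 1.66 for peony (adjusted p = 6.61e-22). Of the 8 measured AHR targets CYP1A1 alone passed, and the median of the 8 was 0.365. The share of all genes higher with angelica was 3.59%. CYP1A2 (0.294 against 0.117 CPM, adjusted p = 0.275) and CYP1B1 (0.196 against 0.103 CPM, adjusted p = 0.519), enzymes of the same family, lay near the level of a few counts. TIPARP, an AHR-induced enzyme, was at 22.6 and 22.3 CPM (adjusted p = 0.714). The core of the AHR binding site, GCGTG, was found on either strand in 51.9% of all promoters with an entry, 58.4% of those of genes higher with angelica and 50.8% of those higher with peony. The stretch of the CYP1A1 promoter with its match, 57 bases before the start site, is shown because this gene differed at all 3 doses, with the core in capitals.
CYP1A1, chr15:74725539-74725638, minus strand: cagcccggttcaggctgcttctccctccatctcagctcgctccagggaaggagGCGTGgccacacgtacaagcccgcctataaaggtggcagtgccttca

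The glutathione list and the list of drug receptor targets were split. Over all genes tested, 3.59% were higher with angelica and 2.58% with peony. Of 14 measured genes of glutathione synthesis and use, GSTA1 and GSTA2 were higher with angelica, SLC7A11 and GGT1 were higher with peony and 10 did not pass (median log2 0.022). GSTA1, a glutathione transferase of liver, was at 47.7, 49.7 and 49.7 CPM with angelica and at 27.1, 28.4 and 28.8 CPM with peony (log2 0.83 ± 0.073 SE, adjusted p = 6.27e-12). GSTA2, its near-identical neighbour with which it may share reads, was at 21.1, 21.0 and 20.7 CPM with angelica and 10.97, 12.2 and 13.02 CPM with peony (log2 0.83 ± 0.084 SE, adjusted p = 5.01e-10). The GSTA1 means at 20, 100 and 500 µg/mL were 37.8, 40.8 and 49.0 CPM with angelica (500 against 20, adjusted p = 0.000564) and 35.5, 37.6 and 28.1 CPM with peony (adjusted p = 0.00192), beside 41.1 CPM in vehicle. Of 11 measured genes regulated by the drug receptors PXR and CAR, 3 were higher with angelica, 1 was higher with peony and 7 did not pass (median log2 0.051). UGT1A1, which conjugates bilirubin and shares exons with other UGT1A genes, averaged 24.1 CPM with angelica and 18.2 CPM with peony (log2 0.43 ± 0.063 SE, adjusted p = 4.67e-06). SULT2A1, a steroid sulfotransferase, was at 165, 153 and 151 CPM with angelica and at 122, 121 and 125 CPM with peony (log2 0.38 ± 0.044 SE, adjusted p = 2.52e-08). CYP3A5 averaged 8.58 CPM with angelica and 6.44 CPM with peony (adjusted p = 4e-05), while CYP3A4, the main drug-oxidising enzyme of liver, was at 0.360 and 0.332 CPM (adjusted p = 0.957). ALAS1, the rate-limiting enzyme of heme synthesis, was the member higher with peony (log2 -0.24 ± 0.044 SE, adjusted p = 0.000142). NQO1, a target of the antioxidant factor NRF2, was at 565 ± 15.0 CPM (SD, n = 3) with angelica and 556 ± 20.3 CPM (SD, n = 3) with peony (log2 0.05 ± 0.044 SE, adjusted p = 0.62). Of 15 measured NRF2 targets of quinone, thioredoxin and heme metabolism, 2 were higher with angelica, 2 with peony and 11 did not pass (median log2 0.018). With 1 library left out these counts were 0 to 2 with angelica and 1 to 2 with peony.

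**Figure D3:**
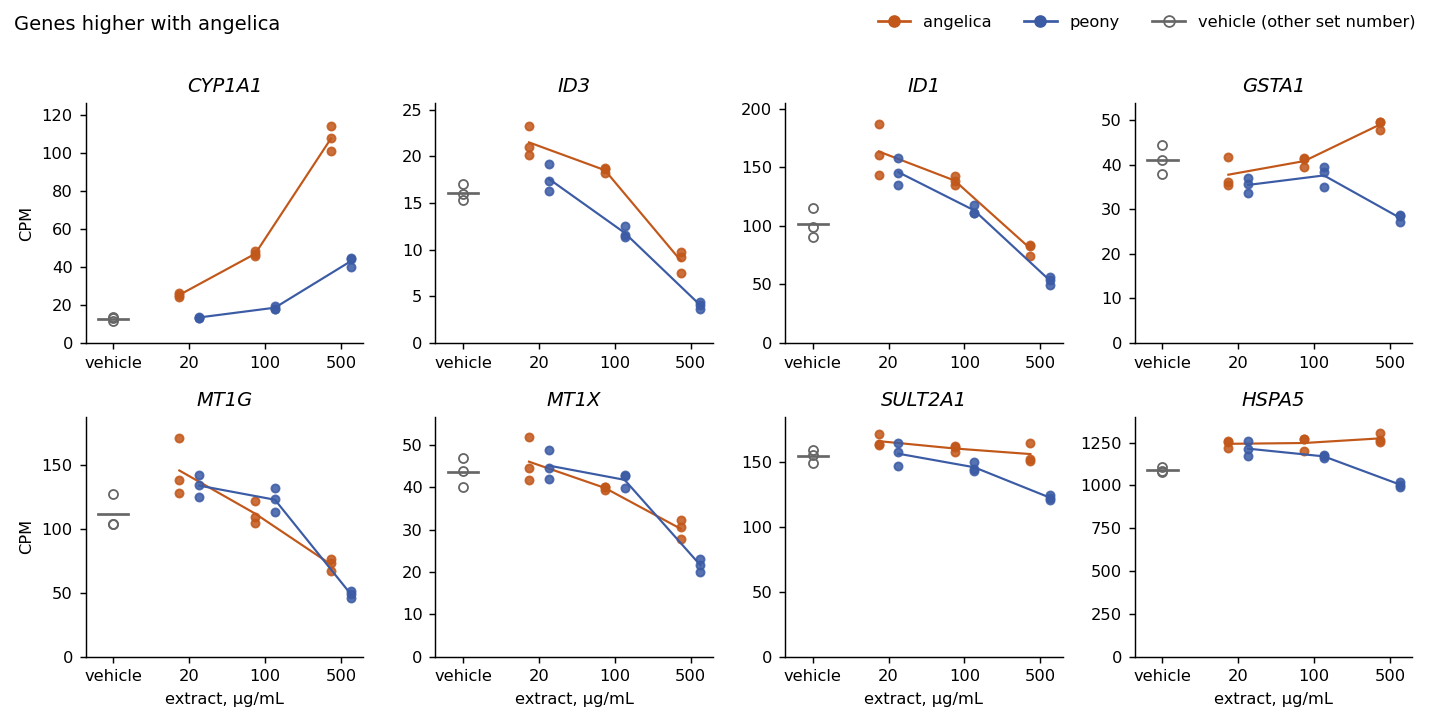
Level in CPM (linear axes from 0) of 8 genes higher with angelica at 500 µg/mL, in every library of angelica (orange), peony (blue) and vehicle (grey open circles, another set number), by dose in µg/mL; lines join the means of 3 libraries. CYP1A1 rises with both extracts, to 108 CPM with angelica and 43.1 CPM with peony, whereas ID3 and MT1G lie lower at 500 than at 20 µg/mL of either extract, and lower with peony.

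The ID genes, SMAD targets that inhibit differentiation factors, were higher with angelica at 500 µg/mL. ID3 was at 9.77, 9.21 and 7.52 CPM with angelica and at 4.10, 4.35 and 3.66 CPM with peony, with no overlap (log2 1.16 ± 0.107 SE, adjusted p = 2.71e-11). Its means at 20, 100 and 500 µg/mL were 21.5, 18.5 and 8.84 CPM with angelica and 17.6, 11.8 and 4.04 CPM with peony, beside 16.1 CPM in vehicle. The fall from 20 to 500 µg/mL passed the threshold with both, at log2 -1.26 with angelica (adjusted p = 5.77e-16) and -2.14 with peony (adjusted p = 2.08e-22). ID1 was at 83.2, 83.9 and 74.7 CPM with angelica and at 49.8, 56.0 and 53.8 CPM with peony (log2 0.63 ± 0.126 SE, adjusted p = 0.000695). ID2 averaged 63.4 CPM with angelica and 43.5 CPM with peony (log2 0.57 ± 0.085 SE, adjusted p = 7.53e-06). Of 9 measured genes of the SMAD list, these 3 were higher with angelica and BMPR2, a receptor chain, higher with peony. The shares of all genes were 3.59% and 2.58%. The BMPR2 call was lost with any 1 of the 6 libraries left out (adjusted p = 0.0596 to 0.154). HAMP, which encodes hepcidin, was at 0.779, 0.785 and 0.768 CPM with angelica and 0.228, 0.510 and 0.358 CPM with peony, and just missed the threshold (log2 1.14 ± 0.366 SE, adjusted p = 0.0509). At 100 µg/mL HAMP stood at 3.52 CPM with angelica and 1.67 CPM with peony (log2 1.07, adjusted p = 0.0106), and in vehicle at 7.12 CPM. ID3 was higher with angelica at 100 µg/mL too (log2 0.64, adjusted p = 2.9e-06).

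Metallothioneins are small proteins that bind zinc and copper. Of 10 genes of the metallothionein and zinc list, MT1X, MT1G, MT1F and MT1E were higher with angelica, none was higher with peony and 6 did not pass. The share of all genes higher with angelica was 3.59%. Of the 10 log2 differences 3 were negative (median log2 0.423). MT1E lost its call without each library but angelica 500 replicate 3 (adjusted p = 0.0638 to 0.143). MT1F lost its call without angelica 500 replicate 2 (adjusted p = 0.066) or peony 500 replicate 1 (adjusted p = 0.0664). The count of 4 dropped to 2 without angelica 500 replicate 2 or without peony 500 replicate 1. MT1X was at 30.6, 32.3 and 27.8 CPM with angelica and at 21.7, 23.1 and 20.1 CPM with peony (log2 0.51 ± 0.099 SE, adjusted p = 0.000451). MT1G was at 72.9, 76.6 and 66.7 CPM with angelica and at 46.1, 49.2 and 51.5 CPM with peony (log2 0.58 ± 0.132 SE, adjusted p = 0.00297). The metallothionein genes are near-identical copies, so reads may be split between them. MT1X averaged 46.1, 39.9 and 30.2 CPM at 20, 100 and 500 µg/mL angelica and 45.2, 41.8 and 21.6 CPM at the same doses of peony, and neither lower dose separated the extracts (adjusted p = 1 at 20 and 0.979 at 100 µg/mL). MT2A, the most widely expressed of the family, averaged 305 ± 15.9 CPM (SD, n = 3) with angelica and 257 ± 6.04 CPM (SD, n = 3) with peony (log2 0.27 ± 0.125 SE, adjusted p = 0.223). The core of the metal response element, TGCGCNC or TGCACNC on either strand, occurred in 38.9% of all promoters with an entry, in 37.6% of those of genes higher with angelica and in 40.6% of those higher with peony. The MT1X promoter is shown because it was the only 1 of the 4 called genes with an entry, and its 4 matches are in capitals.
MT1X, chr16:56682300-56682439, plus strand: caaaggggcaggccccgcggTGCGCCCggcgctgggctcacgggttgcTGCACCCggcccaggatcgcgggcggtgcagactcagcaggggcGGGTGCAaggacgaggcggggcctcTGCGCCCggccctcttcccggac

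Chaperones of the cytosol and of the endoplasmic reticulum were higher with angelica, by small amounts in many genes. Of 18 heat shock and cytosolic chaperone genes, 13 were higher with angelica, none with peony, and all 18 log2 differences were positive (median 0.245); over all genes 3.59% were higher with angelica. HSP90AB1, a form of the chaperone HSP90, was at 2689, 2606 and 2625 CPM with angelica and 2404, 2390 and 2325 CPM with peony (log2 0.18 ± 0.029 SE, adjusted p = 2.47e-05). Its co-chaperones FKBP4, STIP1 and AHSA1 differed by log2 0.29 ± 0.036, 0.32 ± 0.044 and 0.25 ± 0.041 SE, with adjusted p of 1.03e-07, 1.57e-06 and 3.08e-05. HSPB1, a small heat shock protein, and BAG3, a co-chaperone, had log2 differences of 0.03 (adjusted p = 0.87) and 0.14 (adjusted p = 0.233). Of 19 endoplasmic reticulum chaperones and genes of the unfolded protein response, 8 were higher with angelica and none with peony (median 0.149). HSPA5 (BiP, the main chaperone of that compartment) was at 1307, 1252 and 1266 CPM with angelica and 1019, 1006 and 992 CPM with peony (log2 0.37 ± 0.036 SE, adjusted p = 1.97e-10). MANF, HYOU1 and CALR, 3 further proteins of that compartment, differed by log2 0.36 ± 0.058, 0.29 ± 0.035 and 0.28 ± 0.036 SE, with adjusted p of 2.36e-05, 4.41e-08 and 1.8e-07. HSPA5 averaged 1243, 1248 and 1275 CPM at 20, 100 and 500 µg/mL angelica and 1215, 1170 and 1006 CPM with peony. From 20 to 500 µg/mL peony 13 of the 18 heat shock genes and 9 of the 19 endoplasmic reticulum genes fell. For that dose change 3.49% of all genes were called. From 20 to 500 µg/mL angelica no gene of either list was called, beside 1.22% of all genes.

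Genes of DNA replication, mitosis and ribosome production showed the same direction. Of 33 replication genes, 15 were higher with angelica and none with peony (median log2 0.128). Over all genes tested, 3.59% were higher with angelica, the share to set beside each count of this paragraph. MCM3, part of the helicase that opens DNA for copying, was at 245, 236 and 237 CPM with angelica and 208, 209 and 206 CPM with peony (log2 0.23 ± 0.03 SE, adjusted p = 4.25e-07). MCM6, CDC6 and MCM10, which also act at replication origins, differed by log2 0.28 ± 0.04, 0.24 ± 0.035 and 0.32 ± 0.05 SE, with adjusted p of 4.12e-06, 3.57e-06 and 1.29e-05. Of 32 mitotic genes, 11 were higher with angelica and none with peony (median 0.132), 18 when only the 6 libraries were fitted. AURKA, a kinase of the spindle poles, averaged 245 CPM with angelica and 214 CPM with peony (log2 0.22 ± 0.037 SE, adjusted p = 4.4e-05), and CCNB1, the cyclin of mitotic entry, 151 and 125 CPM (log2 0.30 ± 0.054 SE, adjusted p = 0.000182). Of 23 genes of ribosome biogenesis and RNA polymerase I, 15 were higher with angelica and none with peony (median 0.168). With any 1 library left out the count was 11 to 12 for replication, 8 to 12 for mitosis and 10 to 13 for ribosome biogenesis. NPM1 (nucleophosmin) averaged 1507 against 1339 CPM (log2 0.20 ± 0.039 SE, adjusted p = 0.000671) and NOP56, a small nucleolar RNA protein, 515 against 447 CPM (log2 0.23 ± 0.049 SE, adjusted p = 0.00133). MCM10, with 1.25-fold, differed most of the genes named in these 3 lists. All 52 cytosolic ribosomal protein genes and all 27 proteasome subunits had positive log2 differences, with medians of 0.140 and 0.139, but few passed singly. Of the proteasome genes 7 passed, 4 without angelica 500 replicate 1, angelica 500 replicate 2 or peony 500 replicate 1, 2 without peony 500 replicate 3 and 20 when only the 6 libraries were fitted. Of the ribosomal protein genes 5 passed, 1 without angelica 500 replicate 1, 0 without angelica 500 replicate 2, peony 500 replicate 1 or peony 500 replicate 3, 2 without angelica 500 replicate 3, and 30 when only the 6 libraries were fitted.

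**Figure D4:**
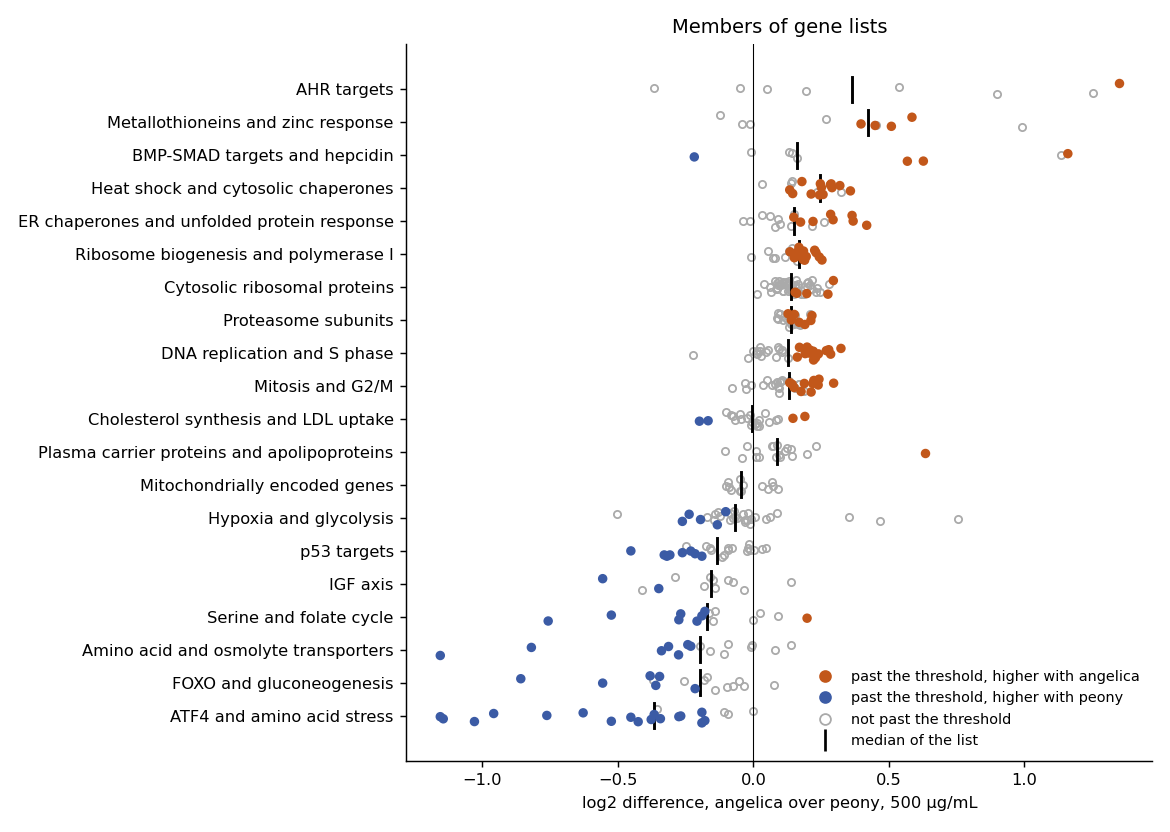
Log2 difference between angelica and peony at 500 µg/mL (positive: higher with angelica) for each measured member of 20 gene lists; filled points passed an adjusted p of 0.05 over 16093 genes, open grey points did not, and black bars are list medians, with members scattered vertically for legibility. The ATF4 list lies wholly left of zero with 17 of 21 filled, and the heat shock list wholly right of it with 13 of 18 filled.

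Several pathways of liver metabolism held no gene past the threshold. In edgeR's test this was so for 18 genes of fatty acid and triglyceride synthesis, 9 LXR targets, 9 genes of bile acid synthesis, 8 of the pentose phosphate pathway, 6 aldo-keto reductases, 13 mitochondrially encoded genes, 28 nuclear subunits of complex I, 14 interferon-stimulated genes and 14 liver transcription factors. Of the 119 genes, 24 had an unadjusted p under 0.05 in edgeR's test, beside 3037 of all 16093 genes tested. DESeq2's Wald test called 3 of the 119 higher with angelica and 2 higher with peony. CYP7A1, which starts the conversion of cholesterol to bile acids, was at 5.64, 5.45 and 6.02 CPM with angelica and 3.81, 5.53 and 5.33 CPM with peony, groups that overlapped (adjusted p = 0.165). ALB was at 14670 ± 196 CPM (SD, n = 3) with angelica and 13960 ± 85.2 CPM (SD, n = 3) with peony (log2 0.10 ± 0.054 SE, adjusted p = 0.345). AKR1B10, an aldo-keto reductase, went from 44.0 to 64.9 CPM between 20 and 500 µg/mL angelica (log2 0.57, adjusted p = 1.56e-09) and from 47.7 to 63.2 CPM with peony (log2 0.39, adjusted p = 9.6e-06), and the extracts did not separate at 500 µg/mL (adjusted p = 0.623).

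The number of genes called between the extracts was larger at the higher doses. At 100 µg/mL, in separate libraries, 8 of 16093 genes (0.0497%) passed the threshold. They were CYP1A1, ID3, HAMP, UGT1A1 and MBL2 (a lectin of innate immunity), higher with angelica, and SLC7A11, ASNS and GCLM (a subunit of the glutathione-making enzyme), higher with peony. The number was 4, 5 and 3 without angelica 100 replicate 1, 2 and 3, and 3, 2 and 3 without peony 100 replicate 1, 2 and 3. At 20 µg/mL CYP1A1 was the only gene called (0.00621%). At an unadjusted p under 0.05 there were 3037 genes at 500 µg/mL, 906 at 100 µg/mL and 620 at 20 µg/mL. Of the 993 genes called at 500 µg/mL, 830 (83.6%) had the same sign at 100 µg/mL and 638 (64.2%) at 20 µg/mL, where all genes tested gave 61.3% and 55.5%. GCLM was called at 100 µg/mL (log2 -0.26, adjusted p = 0.0432) and not at 500 µg/mL, where it was at 39.4 ± 1.603 CPM (SD, n = 3) with angelica and 42.0 ± 2.41 CPM (SD, n = 3) with peony (adjusted p = 0.572).

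**Figure D5:**
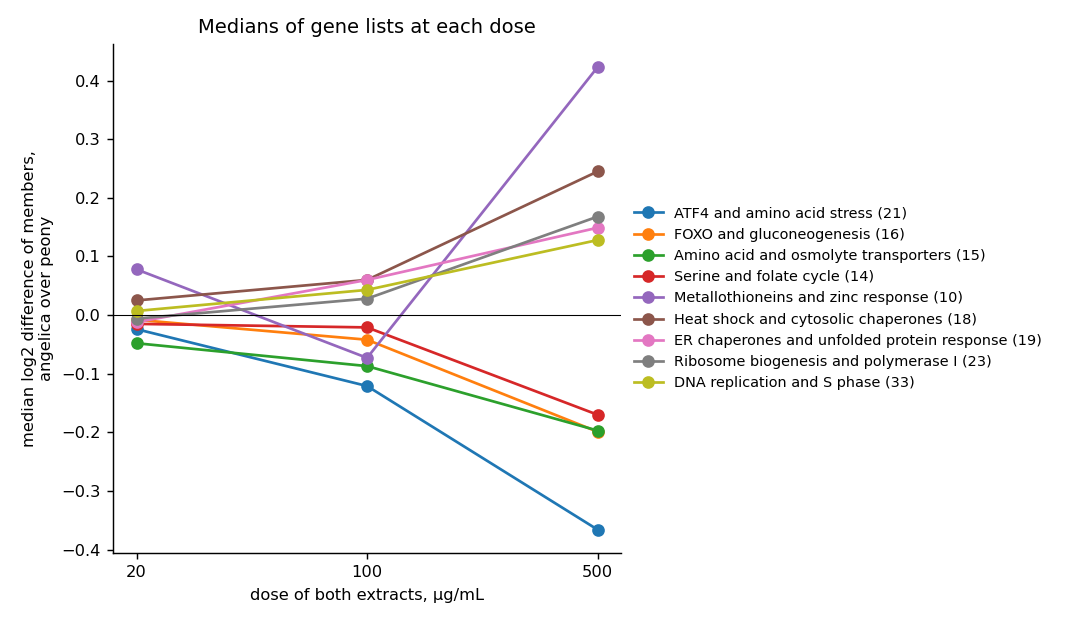
Median log2 difference between angelica and peony (positive: higher with angelica) over the members of 9 gene lists at 20, 100 and 500 µg/mL, each dose from its own 6 libraries; the number of measured members is in brackets. The medians lie near zero at 20 µg/mL and apart at 500 µg/mL, where the ATF4 list is at -0.366 and the metallothionein list at 0.423.

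From 20 to 500 µg/mL, 561 genes (3.49%) changed with peony, 287 up and 274 down, and 196 (1.22%) with angelica, 86 up and 110 down. The direct test of the difference between the 2 dose changes called 149 genes (0.926%), 84 of them higher on the angelica side. The peony count was 338, 353 and 343 without peony 500 replicate 1, 2 and 3 and 319 without peony 20 replicate 2. The angelica count was 124, 122 and 124 without angelica 500 replicate 1, 2 and 3, and 126 and 110 without angelica 20 replicate 2 and 3. The count of 149 was 88 and 84 without angelica 500 replicate 1 and 3, 75 without angelica 20 replicate 2, 94 and 66 without peony 500 replicate 2 and 3, and 91 without peony 20 replicate 2. Of the 10 metallothionein and zinc genes, 7 fell with angelica, while 8 fell and 1 rose with peony, and none passed the test of the difference in dose change. Of the 9 SMAD list genes 5 fell with angelica and 7 with peony, and ID3 alone passed that test (interaction log2 0.88, adjusted p = 4.45e-05). Of the 33 replication genes none was called with angelica, 8 fell with peony, and 10 passed the test of the difference, each higher on the angelica side.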

How the data were processed

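The expected counts per gene were estimated by the authors with RSEM before the table was deposited, per the submitters' processing notes and the values, and were rounded here to whole numbers. The notes list the tools FastQC 0.11.9, Trim Galore 0.6.5, STAR 2.7.3a and RSEM 1.3.3 and the build hg38. The annotation release is not given in the sources used here. Another 210 columns of the table were not used, and rows without a symbol held 0.441% of the counts. Gene places are from GENCODE 29.

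Genes were filtered with filterByExpr and tested in R 4.3.3 with edgeR 4.0.16 (TMM, quasi-likelihood, 1 fit over all 60 libraries in 20 groups, Benjamini-Hochberg threshold 0.05); DESeq2 1.42.0 was an alternative. Levels are CPM of the library total. On simulated data for the main comparison (16048 genes), the test found 60 of 100 genes given a 1.25-fold difference and 88 of 100 given 1.5-fold. There were 8 false among 156 calls. The genes given a difference were drawn from those at a mean of 1 CPM or more, so detection below that level was not simulated. Counts between these libraries differed by more than sampling noise. Named genes were the 15 largest called differences per direction at 5 CPM or more without overlap, up to 4 called members of smallest p per list, and a fixed set of liver genes. ATF4, ATF3, CYP1A2, CYP1B1, TIPARP, MDM2, BAX, HSPB1, BAG3, MBL2 and the uncalled members of the ATF4 list were named after their values were seen. Members and lists were chosen with earlier results of these data known. A list's genes are shown by counts and medians, with no test of the list. Alternatives were other scaling, filters, libraries in the fit, a replicate block, DESeq2 and leaving out each library.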

Additional observations from a re-analysis of the deposited data

Results flagged for a closer look

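The change from 20 to 500 µg/mL differed between angelica and peony for 149 genes in a direct test of that difference (edgeR interaction term, Benjamini-Hochberg adjustment). Among the genes named for their difference at 500 µg/mL that passed this test, a negative value means a change more strongly upward with peony, and the interaction shares the 500 µg/mL libraries with the comparison that chose the genes. The genes higher with peony gave log2 values of -0.907 for SLC7A11, -0.969 for NUPR1, -0.891 for ASNS, -0.877 for JDP2 and -0.762 for DEPP1. SLC6A9, ADM2, INHBE, VLDLR and ALDH1L2 gave -0.706, -0.744, -0.754, -0.64 and -0.829. DDIT4, ADGRG1, FAXDC2 and ZFP69B gave -0.748, -0.55, -0.481 and -0.53. The genes higher with angelica gave 0.875 for ID3, 0.741 for GSTA1, 0.723 for GSTA2, 0.585 for KNG1, 0.581 for ANKRD1, a known YAP target, and 0.438 for CYP1A1.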

How the results depend on the processing

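At 500 µg/mL the count of 993 was 900 to 1106 with DESeq2 scaling, other filters, the mitochondrial genes left out, or DESeq2's Wald test, and 805 with only the 18 libraries of these extracts. With only the 6 libraries fitted it was 1540, of which 927 were higher with angelica. Leaving out 1 library gave 548 to 772 genes, 318 to 450 higher with angelica and 220 to 322 higher with peony. At 100 µg/mL the count of 8 was 105 with no filter, 34 with only its own libraries, 4 with the 18 libraries, 3 with the replicate block there, 15 with DESeq2 and 2 to 5 with 1 library left out. At 20 µg/mL it was 77 with no filter, 2 with DESeq2 and 1 with any library left out. The change with dose of angelica gave 315 genes with no filter, 53 with only its own libraries and 110 to 217 with 1 library left out. That of peony gave 156 with only its own libraries and 319 to 503 with 1 left out. The difference of the dose changes gave 230 with no filter, 30 with only its own libraries, 84 with the 18, 95 with the replicate block there, 238 with DESeq2 and 66 to 144 with 1 left out. The cause of these shifts was not tested. Of the 140 named genes 128 passed at 500 µg/mL, and 81 of these kept their call without each of the 6 libraries.

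Libraries share replicate numbers across groups, but same-numbered libraries at 500 µg/mL deviated together with correlations of only 0.149, 0.187 and -0.031 over 9327 genes. The values were 0.052, 0.176 and 0.131 at 100 µg/mL and 0.422, -0.28 and -0.321 at 20 µg/mL. Between 20 and 500 µg/mL they were 0.243, 0.326 and 0.104 for peony and 0.184, 0.009 and -0.186 for angelica. Libraries of unlike number at 20 µg/mL reached 0.582 and -0.514. With signs mixed, the numbers are not taken as pairs, and the source of the shared deviations was not tested. With a replicate block in the fit of 60 libraries the counts were 1078, 10, 1, 225, 611 and 164 for the comparisons at 500, 100 and 20 µg/mL, the dose changes of angelica and of peony and their difference; in the 18-library fit the block gave 960 at 500 µg/mL. At these depths 3 counts are 0.0899 to 0.1239 CPM, and how far depth limits the calls at low levels was not tested.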

Other observations

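Genes of iron handling differed by small amounts. Of 14 genes of iron uptake, storage and sensing, 2 were higher with peony and none with angelica (median log2 -0.044). The share of all genes higher with peony was 2.58%. With no filter on the genes tested, the count higher with peony was 1. TFRC, the transferrin receptor that brings iron into the cell, was at 1988, 1956 and 1857 CPM with peony and at 1618, 1559 and 1525 CPM with angelica (log2 -0.28 ± 0.05 SE, adjusted p = 0.000144, edgeR). Its means at 20, 100 and 500 µg/mL were 1737, 1803 and 1933 CPM with peony and 1711, 1773 and 1567 CPM with angelica, beside 1743 CPM in vehicle.

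Among acute phase and other secreted liver proteins, genes passed in both directions. Over all genes tested, 3.59% were higher with angelica and 2.58% with peony. Of 13 acute phase genes, 4 were higher with angelica and 2 with peony (median log2 -0.075), and those higher with peony were 0 without peony 500 replicate 1 and 1 without each of the other 5 libraries. HP (haptoglobin), which binds free hemoglobin, averaged 386 CPM with angelica and 326 CPM with peony (log2 0.27 ± 0.06 SE, adjusted p = 0.00291). ORM1 and ORM2, acute phase carrier proteins whose near-identical copies may share reads, differed by log2 0.27 ± 0.053 and 0.25 ± 0.049 SE, with adjusted p of 0.000477 and 0.000455. IGFBP1, a secreted binder of insulin-like growth factors, was higher with peony (376 against 252 CPM, log2 -0.56 ± 0.165 SE, adjusted p = 0.032), a call lost with any 1 of the 6 libraries left out (adjusted p = 0.0539 to 0.111). F7, coagulation factor VII, was higher with peony too (28.7 against 22.6 CPM, log2 -0.33 ± 0.072 SE, adjusted p = 0.00208), a call lost without angelica 500 replicate 1 (adjusted p = 0.0857). KNG1, which encodes kininogen, was at 8.61, 8.63 and 9.34 CPM with angelica and at 6.57, 5.29 and 5.93 CPM with peony (log2 0.59 ± 0.089 SE, adjusted p = 6.88e-06). DKK4, a secreted inhibitor of Wnt signalling, averaged 5.49 CPM with angelica and 3.52 CPM with peony (log2 0.66 ± 0.107 SE, adjusted p = 2.67e-05).

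Of 31 genes of hypoxia and glycolysis, 5 were higher with peony and none with angelica (median log2 -0.069), where 2.58% of all genes were higher with peony. The count was 3 without angelica 500 replicate 1, peony 500 replicate 1 or peony 500 replicate 3, and 2 without angelica 500 replicate 3 or peony 500 replicate 2. VEGFA, the vascular growth factor, was at 174, 166 and 164 CPM with peony and 142, 136 and 142 CPM with angelica (log2 -0.24 ± 0.051 SE, adjusted p = 0.00178).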
